A study of Mus musculus with 3 samples.

Results

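The macrophage lineage transcription factor genes Spi1, Fli1, Cebpa, Cebpb, Maf, Runx1, Mitf, Tfec and Klf4 were followed through the gene and transcript tables. They were picked by symbol, with no measured value in the rule, and all 9 were found among the 55536 genes of the deposited tables. The RNA came from the cytosolic fraction of bone marrow-derived macrophages (BMDM), which are primary phagocytes grown in culture from the marrow, here of C57BL/6J mice. The cells had been given lipid A, the part of bacterial lipopolysaccharide that Tlr4 senses, at 100 ng/ml for 12 h, followed by a washout of 12 h, and were taken at 0 min of renewed stimulation. There was 1 group of 3 libraries, replicates 1, 2 and 3, which share a donor identifier, and the labels record neither age nor sex. The labels do not say whether the libraries came from separate animals or cultures, so the spread between them may be technical, and no untreated cells were analysed here, so no value measures an effect of lipid A.

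Macrophage identity is set by a small number of factors that bind together at the enhancers of myeloid genes. PU.1, the ETS factor encoded by Spi1, opens chromatin across the lineage, and the C/EBP and RUNX factors cooperate with it during commitment and, for C/EBPβ, during inflammatory activation. The MAF factors hold mature macrophages in a differentiated, non-dividing state, and the factors encoded by Mitf and Tfec belong to the MiT/TFE family, which controls lysosomal genes and, in the related osteoclasts, bone-resorbing functions.

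Replicates 1, 2 and 3 held 28981178, 53119941 and 46783133 expected counts assigned to genes. Levels are given in TPM (transcript abundance as a part of a fixed total, a measure normalised for transcript length and for the total of the library). Protein-coding genes took only 31.0%, 27.2% and 31.6% of the TPM total in replicates 1, 2 and 3, so every TPM value depends on the share of the other RNAs. Of the expected counts assigned to genes, protein-coding genes took 91.1%, 87.3% and 88.5%. All 8 macrophage markers checked reached 1 TPM in every library, with a median of 213 ± 55.2 TPM (SD, n = 3). Of the markers of other cells, 3 of 10 reached 1 TPM for neutrophils, 1 of 5 for B cells, 1 of 6 for dendritic cells, 1 of 7 for erythroid cells and platelets, and 1 of 6 for stromal and endothelial cells, with 0 of 6 for T and NK cells and 0 of 5 for mast cells and basophils. Summed neutrophil markers, mostly Csf3r, held 48.3, 33.3 and 50.4 TPM in replicates 1, 2 and 3. S100a9 and S100a8 also reached 1 TPM, at means of 4.54 and 2.96 TPM, and Ly6g was listed at 0. Pf4, of the erythroid and platelet markers, was higher than that sum, at 56.4, 87.2 and 78.7 TPM. Kdr, of the stromal and endothelial markers, held 9.05, 4.30 and 3.51 TPM. Replicate 3 stood apart in RNAs that are normally kept in the nucleus, since Malat1 held 158, 91.0 and 1343 TPM and Neat1 held 16.8, 10.4 and 91.4 TPM in replicates 1, 2 and 3. Fewer cells of a type and less RNA per cell cannot be told apart in such bulk libraries.

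The 9 genes covered more than 2 orders of magnitude, with Spi1 and Maf on top and Klf4 alone below 1 TPM as deposited. All members but Klf4, 8 of 9, reached 1 TPM in every library, as did 41.2% of protein-coding genes and 17.1% of all genes. This depends on the unit: with TPM rescaled to the total of protein-coding genes, Klf4 held 2.59 ± 0.746 (SD, n = 3), and all 9 reached 1 TPM in every library. Spi1, Maf, Cebpb, Fli1, Cebpa and Mitf, 6 of the 9, also reached 10 TPM in every library, as did 17.1% of protein-coding genes. The members' median was 20.0 ± 4.47 TPM, set beside 0.157 ± 0.0462 TPM over protein-coding genes (SD, n = 3). Spi1 had a mean level 139 times that of Klf4. In mean level Spi1 was followed by Maf, Cebpb, Fli1, Cebpa, Mitf, Runx1, Tfec and Klf4, and 98.0% of protein-coding genes lay below Spi1 while 56.0% lay below Klf4.

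**Figure D1:**
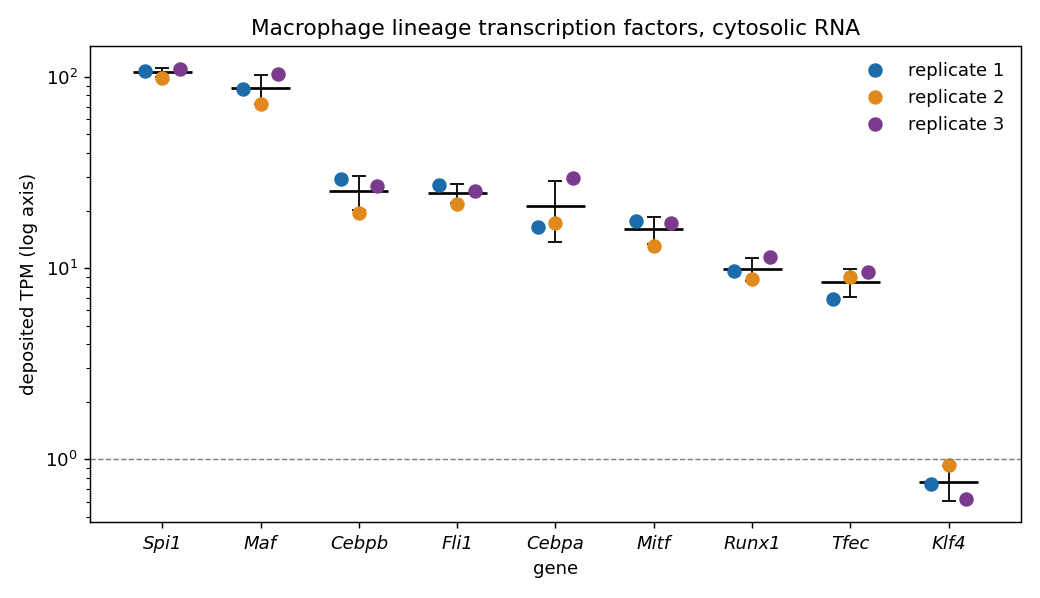
Level of each of the 9 genes (deposited TPM, log axis) in replicates 1, 2 and 3 (coloured points), with the mean as a horizontal line and the SD over the 3 libraries as a bar; the dashed line marks 1 TPM. Spi1 and Maf lie near 100 TPM, 6 genes lie between 6.90 and 29.7 TPM, and Klf4 lies between 0.620 and 0.930 TPM.

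The ranges of neighbours in this order often overlapped. Of the 36 pairs of members, 30 had ranges over the 3 libraries that did not overlap, and 31 kept the same order in every library. The 6 overlapping pairs were Spi1 and Maf, Cebpb and Fli1, Cebpb and Cebpa, Fli1 and Cebpa, Cebpa and Mitf, and Runx1 and Tfec. The levels thus formed 4 steps whose ranges were separate: Spi1 with Maf, then Cebpb, Fli1, Cebpa and Mitf, then Runx1 with Tfec, then Klf4. In the transcript table made directly from the reads, Fli1 (mean 9.73 TPM) stood just above Cebpb (9.49 TPM), and the other 35 pairs kept their order.

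Spi1 (ENSMUSG00000002111.8, chromosome 2, 91082390 to 91115756, plus strand, GRCm38) encodes PU.1, without which mice form no macrophages. It held 108, 99.1 and 110 TPM in replicates 1, 2 and 3, from 6746, 13699 and 11148 expected counts. The mean of 106 ± 5.93 TPM (SD, n = 3) placed it at rank 435 among protein-coding genes. Its closest relatives were far lower: Spic, which is needed for the red pulp macrophages of the spleen, held 5.66, 4.40 and 4.57 TPM, and Spib, a factor of B cells and plasmacytoid dendritic cells, held 0.130, 0.240 and 0.130 TPM. Spi1 was thus above both relatives in 3 of 3 libraries, 21.7 times Spic in mean level.

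The main Spi1 messenger, Spi1-201, took 71.6 ± 4.26% of the gene's TPM (SD, n = 3), but a set of upstream-starting models took a visible share. Spi1-202, a processed transcript with no coding sequence, starts 13688 bases upstream of the Spi1-201 start and ends 5786 bases upstream of it. A well known enhancer lies upstream of Spi1 in mouse, but its position relative to Spi1-202 was not examined here. Spi1-202 took 19.5%, 15.8% and 17.1% of the gene's TPM in replicates 1, 2 and 3, and 17.0 to 20.4% in the read-derived table. Because it is short, these shares rested on 370, 590 and 519 counts, which were 4.82 ± 0.605% of the gene's expected counts. Spi1-204, a coding model that also starts upstream, took 5.57 ± 2.07% of TPM in the table made from alignments and 11.7 ± 3.43% in the read-derived table. Together the upstream-starting models took 27.3%, 20.8% and 21% of Spi1 TPM and 6.08 ± 1.05% of its counts (SD, n = 3), so the upstream share depends strongly on the length correction.

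Fli1 (ENSMUSG00000016087.13, chromosome 9, 32422204 to 32542861, minus strand) encodes an ETS factor of blood stem cells, megakaryocytes and endothelium that myeloid cells also use. Its levels were 27.3, 21.6 and 25.2 TPM in replicates 1, 2 and 3, with a mean of 24.7 ± 2.90 TPM (SD, n = 3). The messenger Fli1-201 took 99.3 ± 0.319% of this. Its nearest paralogs were all but missing, with Erg at 0, 0 and 0.0200 TPM and Fev listed at 0 in all libraries. Ets1, a lymphoid ETS gene, held 0.100 to 0.130 TPM. Among the wider ETS family Elf1 and Elf4 stood level with Fli1, at means of 24.1 ± 3.83 and 24.1 ± 4.76 TPM, and their ranges overlapped that of Fli1. Etv6 held 13.1 ± 2.21, Gabpa 6.70 ± 0.403 and Ets2 3.62 ± 0.566 TPM (SD, n = 3), each below Fli1 in 3 of 3 libraries.

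**Figure D2:**
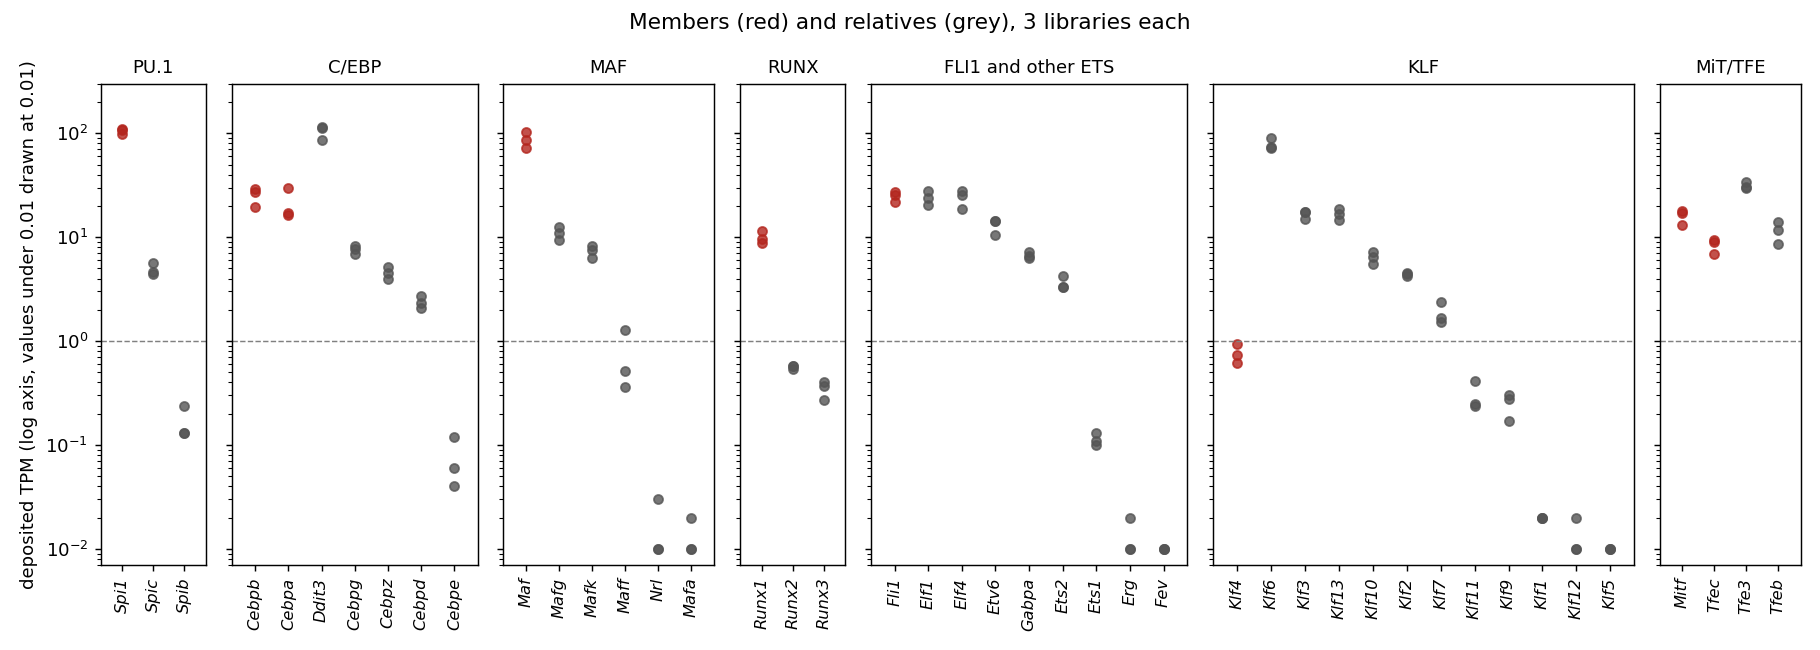
Levels of the 9 members (red) and of their family relatives (grey) in deposited TPM on a log axis, 1 point per library and 3 libraries per gene, values under 0.01 drawn at 0.01, the dashed line at 1 TPM, members at the left of each panel. Spi1, Maf, Runx1 and Fli1 have the highest mean in their panels, whereas Cebpa and Cebpb lie under Ddit3, Mitf and Tfec under Tfe3, and Klf4 under 6 other Klf genes.

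Both C/EBP members were well expressed and could not be ranked against each other. Cebpb (ENSMUSG00000056501.3, chromosome 2, 167688915 to 167690418, plus strand), whose product drives inflammatory and acute phase genes, held 29.2, 19.4 and 27.0 TPM in replicates 1, 2 and 3. Cebpa (ENSMUSG00000034957.10, chromosome 7, 35119293 to 35121928, plus strand), whose product commits progenitors to the myeloid lineage, held 16.4, 17.2 and 29.7 TPM. The means were 25.2 ± 5.11 TPM for Cebpb and 21.1 ± 7.46 TPM for Cebpa (SD, n = 3), and Cebpb was above Cebpa in 2 of 3 libraries. Without replicate 3 the Cebpa mean was 16.8 TPM and that of Cebpb 24.3 TPM.

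Of the other C/EBP genes, the granulocyte factor gene Cebpe was close to 0, at 0.0400, 0.120 and 0.0600 TPM. Cebpd, which in many cells is switched on together with Cebpb, held 2.31, 2.73 and 2.10 TPM, so that Cebpb exceeded it by a factor of 10.6 in mean level. Cebpg and Cebpz held 7.54 ± 0.643 and 4.52 ± 0.616 TPM (SD, n = 3). Ddit3, which encodes the stress-induced family member CHOP, was the highest of the family at 114, 113 and 87.0 TPM, above both Cebpa and Cebpb in every library. Alternative messengers played little part in these genes: Cebpb has 1 transcript, and Cebpa-201 took 88.8 ± 2.15% of Cebpa TPM, the remainder going to Cebpa-202. Cebpb shares 312 exonic bases with Tmem189 on the opposite strand, which held 34.2, 34.9 and 40.4 TPM. Strand use in the counting is not stated in the sources used here, and the split between these overlapping genes is uncertain.

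Maf (ENSMUSG00000055435.6, chromosome 8, 115682942 to 115707794, minus strand) encodes c-Maf, which in macrophages activates Il10 and the complement genes of the C1q group. It held 86.9, 72.3 and 103 TPM in replicates 1, 2 and 3, with a mean of 87.3 ± 15.2 TPM (SD, n = 3), and 79.6 TPM without replicate 3. By raw depth it was the best measured member, at 23388, 39064 and 41210 expected counts. The large MAF genes of pancreas and retina, Mafa and Nrl, held at most 0.0200 and 0.0300 TPM. The small MAF genes, whose products lack an activation domain, held 11.0 ± 1.51 TPM for Mafg, 7.35 ± 0.914 TPM for Mafk and 0.717 ± 0.486 TPM for Maff (SD, n = 3).

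The unspliced model Maf-202 took 83.6 ± 1.05% of Maf TPM in the table made from alignments and 84.6 ± 1.10% in the read-derived table (SD, n = 3), and the spliced Maf-201 took the rest. An antisense gene, Gm15655, shares 440 exonic bases with Maf and held 251, 1142 and 847 counts in replicates 1, 2 and 3. These counts are small beside those of Maf, but in TPM, the unit used for Maf above, Gm15655 held 26.9, 53.9 and 55.5. Gm15655 also differed between libraries by the criteria given below, at a ratio of 2.40. The split of reads between the pair is uncertain.

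Runx1 (ENSMUSG00000022952.17, chromosome 16, 92601466 to 92826149, minus strand) encodes the RUNX factor that is required for the first definitive blood cells and that helps to switch on Spi1. It held 9.60, 8.75 and 11.4 TPM in replicates 1, 2 and 3, with a mean of 9.91 ± 1.34 TPM (SD, n = 3). The other RUNX genes stayed below 1 TPM in every library: Runx2, the bone factor gene, held 0.560 ± 0.0173 TPM and Runx3, of lymphocytes and Langerhans cells, held 0.347 ± 0.0681 TPM (SD, n = 3). Runx1 was 17.7 times Runx2 and 28.6 times Runx3 in mean level, above both in every library. Cbfb, which encodes the shared partner subunit of all RUNX proteins, held 17.1, 15.6 and 16.5 TPM.

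Runx1 is read from a distal and a proximal promoter, whose annotated starts lie 128821 bases apart in these models. Definitive blood cells are known to use the distal promoter strongly, while the proximal promoter is also used in other tissues. Models from the distal start took 69.4%, 61.1% and 58.8% of Runx1 TPM in replicates 1, 2 and 3, and those from the proximal start took 30.6%, 38.9% and 41.2%. The distal share was 63.1 ± 5.57% here and 57.9 ± 5.61% in the read-derived table (SD, n = 3), above the proximal share in 3 of 3 libraries in both tables. This split leans on few bases near the starts. Runx1-201, the leading distal model, has 2265 bases of its own, of which 75 lie in its first exon and 2190 in its last exon. The proximal models Runx1-202 and Runx1-203 have 3 and 0 bases of their own. Bases of a last exon do not tell which start was used, so the split between the starts is uncertain.

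The windows upstream of both Runx1 starts, from RefSeq on GRCm38.p6, are printed here because the data divide the gene between them. Each runs 5′ to 3′ on the minus strand, capitals mark a motif match, and the distal window, chr16:92826150-92826324, leaves out the bases next to the RefSeq start that fall in an annotated exon, while the proximal window is chr16:92697330-92697579.
Runx1 distal start: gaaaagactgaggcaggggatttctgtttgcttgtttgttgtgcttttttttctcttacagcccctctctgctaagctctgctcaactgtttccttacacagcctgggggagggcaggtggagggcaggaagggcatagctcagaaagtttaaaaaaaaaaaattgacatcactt
Runx1 proximal start: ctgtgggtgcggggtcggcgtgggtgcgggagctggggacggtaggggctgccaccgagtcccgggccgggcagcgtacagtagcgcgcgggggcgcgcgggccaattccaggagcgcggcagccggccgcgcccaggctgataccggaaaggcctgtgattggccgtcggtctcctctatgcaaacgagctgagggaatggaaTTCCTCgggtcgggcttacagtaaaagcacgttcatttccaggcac
Searched on both strands, the proximal window held 1 match to the PU.1 core GAGGAA, on the reverse strand, which 23.3% of all promoter windows of that length in the table also hold. The distal window held no match to it, nor to the RUNX motif TGTGGT, the C/EBP motif TTGCNNAA, the CRE motif TGACGTCA, the E-box CACGTG or the TATA motif TATAAA. A match is a description of letters and does not show binding.

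Among the Runx1 models, Runx1-201 led with 60.5%, 58.0% and 46.8% of TPM in replicates 1, 2 and 3. Runx1-202, from the proximal start, followed with 24.7 ± 3.88% (SD, n = 3). It skips a cassette exon of 192 bases (chromosome 16, 92644154 to 92644345), and models with that exon, Runx1-201 and Runx1-203, took 64.3 ± 6.24%. These 2 models took 55.9 ± 5.58% in the read-derived table and 71.5 ± 4.02% of expected counts (SD, n = 3). The own bases of Runx1-201 lie mostly in its last exon, outside the cassette exon, and Runx1-202 and Runx1-203 have 3 and 0. Reads across this exon were not counted here, so its use was not settled by these values. Runx1-203 was assigned 1.04%, 13.4% and 13.1% of TPM in replicates 1, 2 and 3, and 8.36%, 19.9% and 18.5% in the read-derived table, low in replicate 1 in both. The short 2-exon model Runx1-204 took 4.24 ± 3.27% in the table made from alignments but 14.2 ± 5.68% in the read-derived table, so the minor Runx1 models were poorly resolved.

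**Figure D3:**
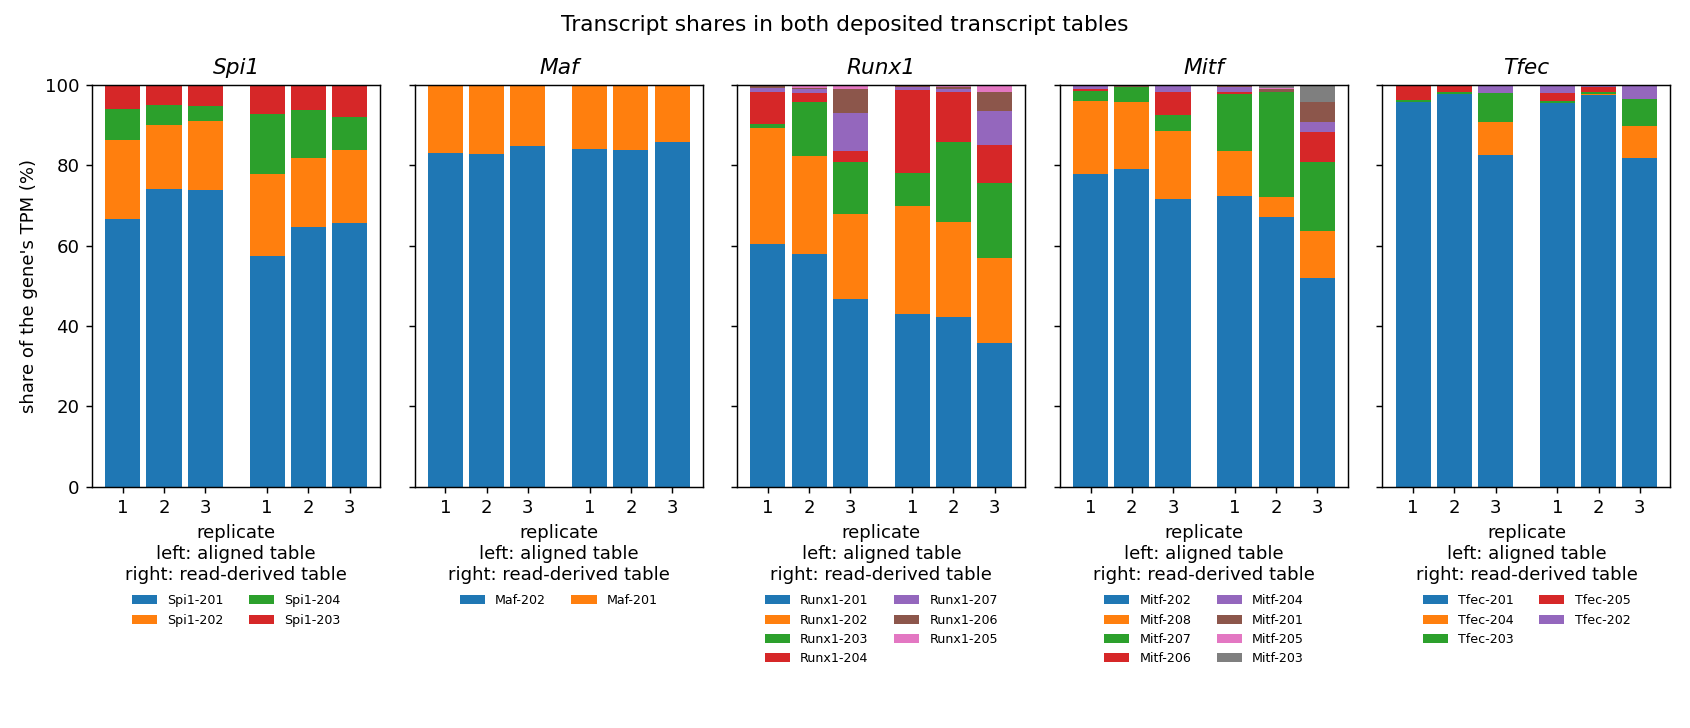
Share of the gene's TPM taken by each annotated transcript of Spi1, Maf, Runx1, Mitf and Tfec, 1 stacked bar per replicate, with the table made from alignments in the left 3 bars of each panel and the read-derived table in the right 3. The leading transcript is the same in both tables for every gene shown, its share varying most for Runx1 (35.8 to 60.5%) and Mitf (52.0 to 79.1%).

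Mitf (ENSMUSG00000035158.15, chromosome 6, 97807052 to 98021349, plus strand) encodes the factor best known as the master regulator of melanocytes, which also acts in osteoclasts, mast cells and macrophages. It held 17.7, 13.0 and 17.2 TPM in replicates 1, 2 and 3, with a mean of 16 ± 2.59 TPM (SD, n = 3). Tfec (ENSMUSG00000029553.10, chromosome 6, 16833373 to 16898441, minus strand), a paralog whose expression in mouse is largely restricted to macrophages, held 6.90, 8.99 and 9.49 TPM, with a mean of 8.46 ± 1.37 TPM. Mitf was above Tfec in 3 of 3 libraries, by a factor of 1.89 in mean level. The broadly expressed relative Tfe3, a nutrient-sensing regulator of lysosomes, was the highest of the family at 30.3, 29.4 and 34.0 TPM, above Mitf and Tfec in every library. Tfeb held 11.8, 8.62 and 13.9 TPM, below Mitf in each library though their ranges overlapped.

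The starts of Mitf annotated in GENCODE form groups, and the most upstream and most downstream groups begin 184740 bases apart. The choice among these starts fixes the amino end of the protein. The most upstream is the A start, used in many tissues, and the most downstream is the M start, known as that of melanocytes. Models from the A start took 80.9%, 83.0% and 81.4% of Mitf TPM in replicates 1, 2 and 3, and those from the M start 18.4%, 17.0% and 16.9%. In expected counts the A-start models took 95.7 ± 0.50% and the M-start models 3.92 ± 0.127%, and in read-derived TPM the shares were 85.7 ± 8.44% and 11.4 ± 5.44% (SD, n = 3). Nearly all of the M-start share was Mitf-208, which has 0 bases of its own and rested on 128, 178 and 176 counts. Mitf-201, another M-start model, took 0.283%, 0.231% and 0% of TPM. Mitf-202, from the A start, led with 76.2 ± 4.06%, though its 2642 own bases all lie in its last exon.

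Both Mitf promoter windows are given from RefSeq on GRCm38.p6 because the models place Mitf RNA mostly at the A start with a minor M-start share. They run 5′ to 3′ on the plus strand, the A-start window being chr6:97806808-97807051 and the M-start window chr6:97991533-97991782, and capitals mark motif matches.
Mitf A start: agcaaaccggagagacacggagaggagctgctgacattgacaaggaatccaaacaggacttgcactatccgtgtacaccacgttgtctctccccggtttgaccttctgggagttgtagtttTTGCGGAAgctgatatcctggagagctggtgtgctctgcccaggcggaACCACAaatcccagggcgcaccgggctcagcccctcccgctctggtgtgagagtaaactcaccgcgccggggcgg
Mitf M start: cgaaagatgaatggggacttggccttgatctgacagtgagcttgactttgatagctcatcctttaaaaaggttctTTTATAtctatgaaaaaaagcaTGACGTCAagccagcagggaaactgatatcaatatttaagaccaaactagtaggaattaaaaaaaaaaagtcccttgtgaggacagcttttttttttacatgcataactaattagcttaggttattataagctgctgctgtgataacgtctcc
With the same motifs searched on both strands, the A-start window held 1 match to the C/EBP motif TTGCNNAA, found in 9.40% of windows of its length, and 1 to the RUNX motif TGTGGT on the reverse strand, found in 13.8%. The M-start window held 1 match to the CRE motif TGACGTCA, found in 1.55% of windows of its length, and 1 to TATAAA on the reverse strand, found in 12.4%. The cyclic AMP response of the M promoter in melanocytes is known to run through such a CRE.

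A further choice in Mitf concerns 18 bases at the start of an exon (chr6:98006123-98006140, plus strand), within the coding sequence, which models include or skip. The bases and their flanks in the GENCODE transcripts are printed because they are the whole difference at this splice site, with the segment in capitals.
Mitf-202: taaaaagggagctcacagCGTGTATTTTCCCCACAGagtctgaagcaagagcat
Mitf-207 and Mitf-208: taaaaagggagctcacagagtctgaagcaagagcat
Models with the segment took 78.8%, 79.5% and 73.2% of Mitf TPM in replicates 1, 2 and 3, and models without it 20.5%, 20.3% and 21%. In the read-derived table the segment-free share was 28.4 ± 2.73%, and in expected counts it was 5.51 ± 0.484% (SD, n = 3). Models with the segment therefore took most of Mitf by every measure, but all of these measures rest on the same models. The 2642 own bases of Mitf-202 lie in its last exon, outside the segment, and Mitf-208 has 0 own bases. Reads across this splice site were not counted here, so neither the lead nor the size of the minor share was settled by these tables. The tables also divided it differently: Mitf-207 took 3.38 ± 0.886% of TPM from alignments and 19.2 ± 6.06% in the read-derived table, and Mitf-208 took 17.2 ± 0.809% and 9.28 ± 3.76%.

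Tfec-201 took 95.8%, 97.8% and 82.6% of Tfec TPM in replicates 1, 2 and 3, and 95.5%, 97.5% and 81.9% in the read-derived table. The lower share in replicate 3 went with higher shares of Tfec-203, a model with a retained intron, and of Tfec-204, a short model at the 3′ side of the gene with 0, 0 and 19 counts. Without replicate 3 the mean share of Tfec-201 was 96.8%.

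Klf4 (ENSMUSG00000003032.8, chromosome 4, 55527143 to 55532466, minus strand) encodes a zinc finger factor needed for inflammatory monocytes and is also a pluripotency factor. It was the lowest member by far, at 0.740, 0.930 and 0.620 TPM in replicates 1, 2 and 3 from 89, 248 and 123 expected counts, with a mean of 0.763 ± 0.156 TPM (SD, n = 3). Of 11 other Klf genes, 6 were above Klf4 in every library and 5 below it. Klf6, a factor of inflammatory macrophages, held 89.9, 71.7 and 73.6 TPM, and Klf3 and Klf13 held 16.8 ± 1.45 and 16.7 ± 1.99 TPM. Klf2, a repressor of inflammatory activation closely related to Klf4, held 4.49, 4.27 and 4.40 TPM, and Klf4 had 0.174 times its mean level. Klf5, another close relative, was at 0.01, 0 and 0 TPM.

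Between libraries no member met the criteria for a difference, though Cebpa and Klf4 came nearest. Scaled with TMM (a factor per library that removes differences in composition, giving CPM, counts relative to the scaled total of the library), none of the 9 members differed by the criteria of a chi-square adjusted p under 0.05 and at least a 2-fold ratio between the highest and the lowest library, which 16.2% of all genes tested and 8.12% of protein-coding genes met. A count of 0 among 9 genes lies close to the share for protein-coding genes. The other 7 members had ratios between 1.12 and 1.40. The ratio was 1.55 for Cebpa, at 65.6, 74.0 and 102 CPM in replicates 1, 2 and 3 (chi-square test with Benjamini-Hochberg adjustment, adjusted p = 1.33e-78). For Klf4 it was 1.86, at 3.19, 4.70 and 2.52 CPM (chi-square test with Benjamini-Hochberg adjustment, adjusted p = 5.39e-08). At a ratio of 1.5, which 27.2% of genes met, these 2 members passed. The test covers counting error alone, so all 9 members passed it at any ratio, as did 75.6% of genes.

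Which library was highest depended on the scaling for some members and not for others. Cebpa was highest in replicate 3, Cebpb, Fli1 and Mitf in replicate 1, and Klf4 in replicate 2, under all 5 scalings compared. The ratio for Cebpa was 1.81 by TPM and 1.35 by read-derived counts, and that for Klf4 was 1.5 by TPM and 2.09 by read-derived counts. Maf was highest in replicate 3 except by read-derived counts, which put it highest in replicate 1. By deposited TPM, Spi1, Runx1 and Tfec were highest in replicate 3, whereas TMM put Spi1 and Tfec highest in replicate 2 and Runx1 in replicate 1. In that unit the log2 difference between replicate 3 and the other libraries was 0.22 for the median protein-coding gene, and it was -0.07 by TMM. Spread beyond counting error, as edgeR's biological coefficient of variation, was 0.119 for Runx1, 0.141 to 0.172 for 7 members and 0.310 for Klf4. The share of genes with a value as low or lower was 3.6% for Runx1, 29.1 to 53.9% for the 7 and 86.4% for Klf4. The trend fitted over expression level was 0.312 at Klf4, so its spread was about that of genes at its level. Cebpa (0.172), Cebpb (0.148) and Tfec (0.162) lay above their trend values of 0.140, 0.138 and 0.161, and the other members lay below theirs. The common value over 12090 genes was 0.210, and 0.169 without replicate 3.

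The leading transcript was the same in both transcript tables for all 9 members. Its median share was 86.7% of TPM over the 9. For the 7 members with several transcripts and at least 1 TPM throughout (all but Cebpb and Klf4), the median was 83.6%, set beside 79.1% over the 8424 protein-coding genes chosen in the same way, whose quartiles were 56.7% and 95.1%. Klf4-201 took 95.3 ± 6.40% of Klf4 TPM from alignments and 80.9 ± 16.6% in the read-derived table (SD, n = 3), where Klf4-202 took 37.4% in replicate 3. Protein-coding models together took 93.3 ± 0.507% of the members' TPM, with 92.7 ± 1.07% over protein-coding genes at 1 TPM. Processed transcripts took 6.32 ± 0.561%, nearly all of it Spi1-202, against 2.20 ± 0.127% over those genes (SD, n = 3).

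Models that hold intron sequence were far higher in replicate 3, in Runx1, Tfec, Mitf and Fli1 as in other genes. Of 34 member transcripts 24 had enough counts to test and 8 differed between libraries (chi-square test with Benjamini-Hochberg adjustment, ratio of at least 2), where 41.6% of all transcripts tested did. Of the 24, 6 both differed and were highest in replicate 3, as 27.6% of all transcripts tested were. Among protein-coding models 3 of 18 differed, Spi1-204, Runx1-203 and Mitf-204, with 26.5% over all genes. Runx1-203 and Mitf-204 were highest in replicate 3, and 11.4% of protein-coding models over all genes both differed and were highest there. Runx1-203 stood at 0.286, 3.77 and 3.79 CPM in replicates 1, 2 and 3, so it was low in replicate 1 and about level in the others. The retained-intron model Runx1-206 held 9, 15 and 175 counts in replicates 1, 2 and 3. Its counterparts Tfec-203 and Mitf-206 held 5, 11 and 155 counts and 6, 2 and 80 counts. All 3 were thus highest in the same library, where Runx1-206 stood at 11.3, Tfec-203 at 15.3 and Mitf-206 at 11.8 times its mean over the other libraries in TMM-scaled CPM. Over all 5950 retained-intron transcripts tested, the median of that ratio was 6.10, 82.9% differed, and 76.9% both differed and were highest in replicate 3. The processed transcript Runx1-207 behaved likewise at 10, 17 and 177 counts, and it held 9.48% of Runx1 TPM in replicate 3. Of processed transcripts over all genes, 33.2% both differed and were highest in that library.

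The introns of Fli1 gave the same picture. A group of 4 gene models of the class TEC (to be experimentally tested) lies inside Fli1 on its strand and shares no exonic base with it. In replicates 1, 2 and 3, Gm38346 held 7, 7 and 236 counts, Gm37082 5, 4 and 222, Gm37474 4, 7 and 171, and Gm38292 0, 2 and 79. Fli1 itself held 4016, 6415 and 5513 counts, and was lowest in replicate 3 by TMM at 113 CPM, with 144 and 122 CPM in replicates 1 and 2. Of the 569 TEC genes tested across the genome, 89.5% differed and were highest in replicate 3, as these 4 did. Malat1 and Neat1 were also highest there, and their part in these values was not tested. These transcripts and genes were picked after their values were seen.

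**Figure D4:**
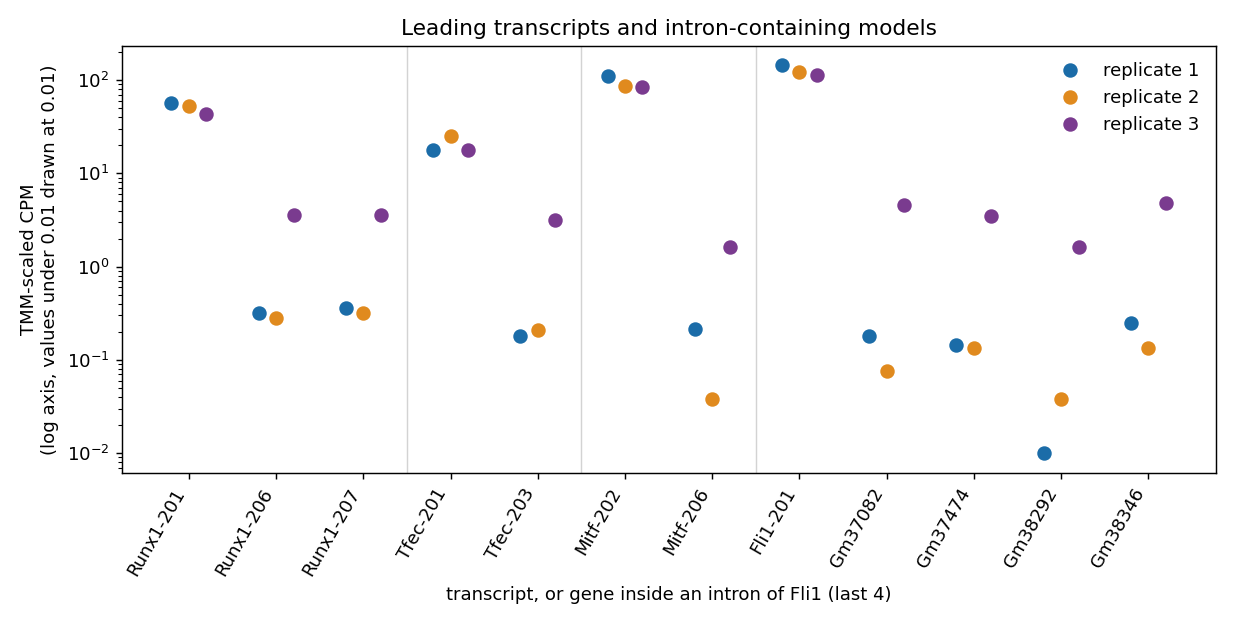
TMM-scaled CPM on a log axis (values under 0.01 drawn at 0.01) in replicates 1, 2 and 3 for the leading transcripts of Runx1, Tfec, Mitf and Fli1 and for intron-holding models of the same loci. The leading transcripts differ little between libraries, while each intron-holding model is highest in replicate 3, from 1.62 CPM for Gm38292 to 4.83 CPM for Gm38346.

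Retained-intron models took a small part of the members' summed TPM, but only Runx1, Tfec and Mitf have any annotated. Spi1 and Maf, the highest members, have none, so the summed share depends on the annotation. Retained-intron models took 0.0627%, 0.0344% and 0.770% of the members' TPM in replicates 1, 2 and 3, and 2.81%, 2.94% and 4.46% over protein-coding genes at 1 TPM. Their share in single genes was larger, at 7.27% for Tfec-203, 6.06% for Runx1-206 and 5.80% for Mitf-206 in replicate 3. With Tfec-202, another retained-intron model, this class took 9.27% of Tfec TPM in that library. The summed share of the members without replicate 3 was 0.0486%.

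The genes that work with the members were mostly present. Among 16 partners and regulators 12 were at 1 TPM or more throughout, and the median over the list was 16.7 ± 1.82 TPM (SD, n = 3). Zeb2, a repressor that keeps macrophages from losing their identity, held 110, 83.3 and 130 TPM, Id2, an inhibitor of E proteins, 72.6, 63.1 and 49.7 TPM, and Irf8, which binds DNA together with PU.1, 52.2, 40.9 and 63.1 TPM. Gfi1 and Myb, factors of granulocytes and progenitors, were lowest at 0.0933 ± 0.0115 and 0.0700 ± 0.0529 TPM. Of 24 factors of other blood lineages, 2 reached 1 TPM in every library, Batf3 at 2.01, 1.35 and 3.12 TPM and Tal1 at 1.53, 1.62 and 1.55 TPM. Nfe2 followed at 0.517 ± 0.104 TPM, and 7 of the list were at 0 TPM in every library, Hoxa9 and Ikzf3 among them. In all, 3 of these had no count in any library, for which the upper limits are 0.104, 0.0565 and 0.0641 CPM in replicates 1, 2 and 3.

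Factors of tissue-resident macrophages ranged from well expressed to listed at 0. Of 13, 7 were at 1 TPM or more throughout, with the stress factor gene Nfe2l2 at 52.5, 53.0 and 38.9 TPM and the oxysterol receptor gene Nr1h3 at 41.5, 28.5 and 37.0 TPM on top. Gata6 of peritoneal macrophages and Sall1 of microglia had 0 counts, and so did Sall3. The remaining 3 were detected below 1 TPM: Runx3 as given above, Id3 at 0.0900 ± 0.0300 and Id1 at 0.0533 ± 0.0321 TPM (SD, n = 3).

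Genes known to be bound or controlled by the members were then set beside them as levels. All 16 PU.1 targets were at 1 TPM or more throughout, and their median was 152 ± 34.1 TPM (SD, n = 3), from the lysozyme gene Lyz2 at 3326 ± 193, Fcer1g at 1411 ± 227, Adgre1 at 753 ± 152 and Tyrobp at 612 ± 54.7 TPM to Tlr4 at 25.6 ± 3.66 and the kinase gene Btk at 21.3 ± 1.57 TPM. Of 10 Maf targets, 8 reached it, with the complement genes C1qb, C1qc and C1qa at 1007 ± 145, 784 ± 121 and 258 ± 49.8 TPM and the heme oxygenase gene Hmox1 at 115 ± 22.1 TPM. The remaining Maf targets were F13a1 at 0.517 ± 0.0757 TPM and the haemoglobin scavenger receptor gene Cd163 at 0.0367 ± 0.0115 TPM. Of 16 MiT/TFE targets, 12 reached it, led by the lysosomal protease gene Ctsd at 2895 ± 278 and by Gpnmb, Lamp1 and Sqstm1 at 1482 ± 81.1, 623 ± 57.4 and 234 ± 76.0 TPM. The osteoclast fusion genes Dcstamp and Ocstamp held 0.0233 ± 0.0153 and 0.00333 ± 0.00577 TPM (SD, n = 3 throughout). These lists were picked as known targets in macrophages and osteoclasts, so their presence is no independent measure of factor activity.

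The C/EBP targets ranged from an abundant acute phase gene to granule genes near 0. Of 14, 8 were at 1 TPM or more throughout, and their median was 3.58 ± 1.09 TPM (SD, n = 3). Saa3, an acute phase gene, held 7075, 2456 and 6635 TPM in replicates 1, 2 and 3. Cd14 held 62.1 ± 15.1 TPM and Csf3r 35.6 ± 10.2 TPM, and the arginase gene Arg1 and the granule protease gene Elane held 0.0133 ± 0.0115 and 0.01 ± 0.0173 TPM. In all, 5 of the 14 differed between libraries by the criteria above, which 16.2% of all genes tested and 8.12% of protein-coding genes met. Those shares are over tested genes only. The 14 include genes averaging under 10 counts, Arg1 and Elane among them, which were not tested and could not be called. Saa3 and Lcn2 were highest in replicate 1, and Ptgs2, Cxcl1 and Il6 in replicate 2; the last 4 genes are named after their values were seen. Cxcl1 and Il6 rested on few reads, with 9, 117 and 40 counts and 27, 128 and 17 counts in replicates 1, 2 and 3. Of the 16 PU.1 targets 0 differed, with 1 of 10 Maf targets and 2 of 16 MiT/TFE targets, and the difference between these lists was not tested. The MiT/TFE list also includes genes with too few counts to test, Dcstamp and Ocstamp among them.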

How the data were processed

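The 3 libraries were total RNA-seq of the cytosolic fraction, depleted of ribosomal RNA. Per the file headers and the deposited README, gene and transcript tables were made by the authors from alignments to mm10 (annotation M21), and another transcript table straight from the reads; aligner, quantifier and strand use were not given in the sources used here. Expected counts, as deposited, estimate the reads of each gene or transcript, with shared reads split between features. The deposited TPM values are normalised by the authors for length and library total, and the deposited FPKM values for length and reads. Depth was 28981178, 53119941 and 46783133 expected counts, so 3 counts, the limit a count of 0 allows, are 0.104, 0.0565 and 0.0641 CPM, which covers counting error only.

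Rows naming no gene, 26345 of 81881, held 0.418%, 0.248% and 0.165% of counts and were left out. Of the 55536 genes, 55450 were also in the read-derived table, all with the same symbol. Levels are deposited TPM. After rounding, the expected counts were scaled by TMM (edgeR 4.0.16 in R 4.3.3), and edgeR estimated the coefficients of variation. Genes averaging 10 counts or more were compared between libraries by a chi-square homogeneity test. Calls were made at a Benjamini-Hochberg adjusted p under 0.05 and a ratio, after adding 0.5 counts, of 2 or more. The test was tried on simulated counts that held counting error alone, so that trial does not cover the spread between these libraries. Each transcript's share is its percentage of the gene's TPM. Promoter windows are from RefSeq (GRCm38.p6), where 6 of 9 members had an entry (not Spi1, Maf or Fli1); gene coordinates come from GENCODE M21 (GRCm38). Scripts ran in Python 3.11.15 with scipy 1.17.1, numpy 2.4.6, matplotlib 3.10.9 and pandas 2.3.3.

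The members and lists were chosen with earlier results of these data known. The naming rule took every member, the 3 highest and 2 lowest genes of each list, all family relatives, the 4 highest and 2 lowest target genes, and transcripts with 10% or more of a member's TPM in either table. Cbfb, Lcn2, Ptgs2, Cxcl1, Il6, Sall3, Id3, Id1, Mitf-201, Mitf-204, Tfec-202, Tfec-204, the other intron-holding models and the genes overlapping or inside members fall outside it, and 1 gene that it covers is not reported here. Of 2 identifiers named Ddit3, the one with more counts was used. Alternatives were FPKM, posterior mean TPM, read-derived TPM, TPM rescaled to protein-coding genes, DESeq2 1.42.0 size factors, changed thresholds, count filters and ratios, and leaving out each replicate. The transcript test and the tally of genes inside introns were chosen after seeing the data.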

Additional observations from a re-analysis of the deposited data

How the results depend on the processing

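Of the main comparisons' alternatives, 131 stayed within limits (a count within 1.5 times, a level or share within 1 SD over libraries) and 17 moved, with 153 and 61 for single genes and transcripts, where a ratio stayed if its highest library did. Within these limits genes still crossed 1 TPM. Members at 1 TPM, 8, numbered 9 with rescaled TPM and 9 at 0.5 TPM, and read-derived TPM left 3 of 4 C/EBP relatives, 4 of 5 Fli1 relatives, 5 of 6 Klf relatives, 11 of 12 partners and 6 of 8 C/EBP targets. The members' median of 20.0 TPM became 7.65 with read-derived TPM and 66.7 with TPM rescaled to protein-coding genes, and 17.5 to 21.4 with a replicate left out. Other-lineage factors at 1 TPM, 2 in all, numbered 0 with read-derived TPM, 4 with rescaled TPM and 0 at a threshold of 5 TPM. Of the families, RUNX relatives went to 1 with rescaled TPM and 1 at 0.5 TPM, and at 5 TPM the PU.1 relatives numbered 0 and the C/EBP relatives 2. Genes differing between libraries, 2203, numbered 3997 with no filter, 777 with a mean of 50 counts, 3704 at a ratio of 1.5 (2 of them members), 937 among protein-coding genes only, and 608 to 2034 with a replicate left out, lowest without replicate 3. The median share of the leading transcript, 86.7% of TPM, was 93.8% of expected counts, and the protein-coding share of the members' TPM, 93.3%, was 92.6% in the read-derived table. Of the 36 pairs of members, 33 to 36 kept their order with a replicate left out and 35 with read-derived TPM.

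The cause of these shifts was not tested. TPM totals, unlike the expected counts, were mostly not protein-coding, so a TPM is a share of a total that differs between libraries. Klf4 rested on 89 to 248 counts, and minor transcripts on far fewer bases than their gene. With 1 group, no comparison of conditions could be made. No paired analysis was possible because the 3 libraries form 1 group.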
